A study of Homo sapiens with 6 samples.

Results

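The bone morphogenetic protein (BMP) ligands BMP2, BMP4 and BMP7, the receptors BMPR1A, BMPR1B and BMPR2, and the inhibitor of DNA binding genes ID1, ID2, ID3 and ID4 were followed in BT474 cells that expressed either of 2 variants of the long non-coding RNA NR2F1-AS1. Members were taken as every probe that the array files annotate with one of these 10 gene names. The 10 genes had 16 probes out of 58201 on the array, which carries 43317 gene names. BT474 is a luminal breast cancer cell line that expresses the estrogen receptor and carries an amplified HER2 gene.

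Total RNA of 3 populations was measured on 6 one-color Agilent arrays, 2 per group. Control BT474 cells had received empty pcDNA3.1, BT474-Var1 cells carried the long variant 1 of NR2F1-AS1 in pcDNA3.1, and BT474-Var4 cells carried the short variant 4 in pcDNA3.1. All groups were kept in RPMI-1640 with fetal bovine serum and differed in no other stated agent. The study describes antibiotic selection of variant and control cells, which were afterwards kept without antibiotic. It also reports that the variant populations shrank to a few cells, from which colonies later grew. The variant and the outgrowth of surviving cells thus cannot be told apart. By the methods of the study the variants sat in different pcDNA3.1 backbones, Var1 in a hygromycin vector and Var4 in a vector with eGFP, and which empty backbone the Control arrays represent was not given in the sources used here, so variant and backbone cannot be told apart. The labels name 2 samples per group without saying that they came from separate cultures, so p-values measure the spread between these samples, which may be technical. In bulk RNA, fewer cells with a transcript and less transcript per cell cannot be told apart.

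Values are log2 intensities relative to the 75th percentile of their array, so that 0 is a probe at that percentile. A probe was tested if some group had it well above background on each of its 2 arrays, and it was called higher or lower at an adjusted p under 0.05 (limma, Benjamini-Hochberg over all 31858 tested probes). Of the 16 member probes 14 were tested, and they stand for 8 genes. Between 47.6% and 57.5% of probes were well above background per array, replicate arrays correlated at r = 0.993 to 0.996, and no spot was saturated. None of the 4 NR2F1-AS1 probes went against a label. A_19_P00320140 and A_22_P00006112 were above background on both BT474-Var1 arrays and on neither BT474-Var4 array, A_24_P51080 on both BT474-Var4 arrays and on neither BT474-Var1 array, and A_22_P00006111 on all 4 of these. On Control replicate B the last 3 of these probes were also above background, at -3.61, -4.25 and -4.16. Of 12 luminal and HER2 amplicon markers, 11 were above background on all 6 arrays, and TFAP2B was on none.

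BMP ligands are secreted as dimers and bind a complex of type I receptors, such as BMPR1A and BMPR1B, and type II receptors, such as BMPR2. The activated type I receptor phosphorylates SMAD1, SMAD5 and SMAD9, which join SMAD4 and enter the nucleus. The ID genes are among the best known direct targets of these SMADs, and their proteins, which have a helix-loop-helix but no basic region, bind partners such as the E proteins and keep them off DNA. In breast epithelium and breast cancer, BMP signals and ID proteins are known for their part in growth, differentiation and metastasis.

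The probe sequences below are from the array files, shown so that a reader can see which stretch of the transcript each value reports. For BMP4, BMP7 and ID3 the whole probe is shown. For ID2 the run ends at the stop codon, in capitals. For ID1 and ID4, whose probes lie toward the 3′ end of the transcript, the first 30 bases of the probe are shown. All are written 5′ to 3′ in the sense of the transcript.
BMP4 A_23_P54144: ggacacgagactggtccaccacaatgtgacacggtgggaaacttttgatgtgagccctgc
BMP7 A_24_P91566: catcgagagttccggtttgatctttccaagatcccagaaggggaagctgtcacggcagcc
ID2 A_23_P143143: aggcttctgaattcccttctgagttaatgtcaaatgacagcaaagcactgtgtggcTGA
ID3 A_23_P137381: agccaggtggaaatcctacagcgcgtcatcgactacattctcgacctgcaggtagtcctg
ID1 A_23_P252306: gcagacattttaaaaaatggtcacgtttgg
ID4 A_33_P3229370: gctaagctactgtcccatctcttgtgatgt
In hg19, the build of the files, these probes lie at chr14:54417318-54417377 (minus strand, BMP4), chr20:55803380-55803439 (minus strand, BMP7), chr2:8822642-8823030 (plus strand, ID2), chr1:23885666-23885725 (minus strand, ID3), chr20:30194158-30194217 (plus strand, ID1) and chr6:19840841-19840900 (plus strand, ID4). The ID2 probe spans 389 genomic bases for its 60 letters, so it crosses an intron. The files give no exon or UTR positions.

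Counted over the 14 tested probes, 4 were higher and 7 lower in BT474-Var1 than in Control cells, where 14.1% and 20.3% of all tested probes were called. In BT474-Var4 cells 6 were higher and 2 lower, against 9.87% and 14.3% of all tested probes. Between the variants 10 were higher and 1 lower in BT474-Var4 cells, against 20.4% and 20.8%. Changes of 2-fold or more were 2 in BT474-Var1 cells (BMP4 and BMP7 A_24_P91566, the latter at the 2-fold line), 3 in BT474-Var4 cells (ID1, ID3 and ID4) and 0 between the variants, where 3.94%, 3.17% and 6.86% of all tested probes were called. Between the variants the methods' one-way analysis of variance, at an unadjusted p under 0.05 and 2-fold, also passed 0 member probes. It passed 1865 of all 31858 tested probes. The median change of the member probes was -0.12, 0.16 and 0.32 in these comparisons, against -0.04, -0.08 and -0.03 over all tested probes. Probes of 1 gene are not independent, since 7 of the 14 belong to BMP7 and BMPR1A. The comparisons share their samples, so the counts are not independent of each other either. All arrays shared 1 slide, where column 2 held the BT474-Var1 arrays and column 1 the other 4, so column and variant 1 cannot be told apart. Rows 1 and 2 held the Control arrays and rows 3 and 4 those of both variants, so slide row and the difference of either variant from Control cannot be told apart either.

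All 5 ID probes rose in BT474-Var4 cells against Control, and 3 of them also rose in BT474-Var1 cells. ID1, ID3 and ID4 followed the same order of group means, Control, then BT474-Var1, then BT474-Var4, with every step past the threshold. For ID2, neither probe passed the test in BT474-Var1 cells.

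ID1, an ID protein with broad roles in proliferation, read 5.58 and 5.51 in Control, 6.27 and 6.27 in BT474-Var1, and 7.04 and 7.05 in BT474-Var4 cells (A_23_P252306). The groups did not overlap, and the largest gap within a group was that of the Control arrays. ID1 rose by 0.73 in BT474-Var1 cells (SE 0.05, adjusted p = 0.00381, limma) and by 1.50 in BT474-Var4 cells (SE 0.05, 2.82-fold, adjusted p = 0.00203). BT474-Var4 exceeded BT474-Var1 by 0.77 (SE 0.05, adjusted p = 0.00193). All 3 calls held under each of the 15 alternatives tried.

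ID3 read 3.36 and 3.42 in Control, 3.79 and 3.78 in BT474-Var1, and 4.70 and 4.80 in BT474-Var4 cells (A_23_P137381). Its BT474-Var4 arrays lay far above the other 4, between which the gap was smaller. ID3 rose by 0.39 in BT474-Var1 cells (SE 0.06, adjusted p = 0.0121, limma) and by 1.36 in BT474-Var4 cells (SE 0.06, 2.56-fold, adjusted p = 0.00265), and BT474-Var4 exceeded BT474-Var1 by 0.96 (SE 0.06, adjusted p = 0.0017). The rise in BT474-Var1 cells missed the threshold without Control replicate A (adjusted p = 0.0687), Control replicate B (0.053), BT474-Var1 replicate A (0.057) or BT474-Var1 replicate B (0.0545).

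ID4, the member of the family best known from neural and mammary progenitors, read 1.52 and 1.55 in Control, 1.85 and 1.89 in BT474-Var1, and 2.52 and 2.57 in BT474-Var4 cells (A_33_P3229370). No array of one group reached the range of another. ID4 rose by 0.34 in BT474-Var1 cells (SE 0.05, adjusted p = 0.0121, limma) and by 1.01 in BT474-Var4 cells (SE 0.05, 2.01-fold, adjusted p = 0.00311), with 0.67 between the variants (SE 0.05, adjusted p = 0.00236). The rise in BT474-Var1 cells missed the threshold without Control replicate A (adjusted p = 0.07), Control replicate B (0.061) or BT474-Var1 replicate B (0.0574).

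ID2 had a coding probe and a second probe further 3′, at chr2:8824282-8824341 in hg19. On the coding probe A_23_P143143 Control read 5.88 and 5.91, BT474-Var1 5.93 and 5.93, and BT474-Var4 6.42 and 6.42. On A_32_P69368 they read 4.80 and 4.75, 4.97 and 4.97, and 5.36 and 5.20. Both probes were thus highest on the BT474-Var4 arrays, and on the coding probe the Control and BT474-Var1 arrays were close.
The rise in BT474-Var4 cells was 0.52 on the coding probe (SE 0.05, adjusted p = 0.00648, limma) and 0.51 on the other (SE 0.07, adjusted p = 0.0151), while the changes in BT474-Var1 cells were 0.04 (95% interval -0.09 to 0.16, adjusted p = 0.575) and 0.20 (0.01 to 0.39, adjusted p = 0.101). BT474-Var4 exceeded BT474-Var1 by 0.48 (adjusted p = 0.00368) and 0.31 (adjusted p = 0.0295). For the second probe in BT474-Var1 cells, quantile normalization gave 0.33 (adjusted p = 0.0264) and a variance trend 0.20 (adjusted p = 0.00561). Without Control replicate A the rises in BT474-Var4 cells missed the threshold on both probes (adjusted p = 0.051 and 0.0732), as did that of the second probe without Control replicate B (0.0843). On the second probe the step between the variants held without BT474-Var4 replicate B and failed without each of the other 5 arrays (adjusted p 0.062 to 0.104).

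**Figure D1:**
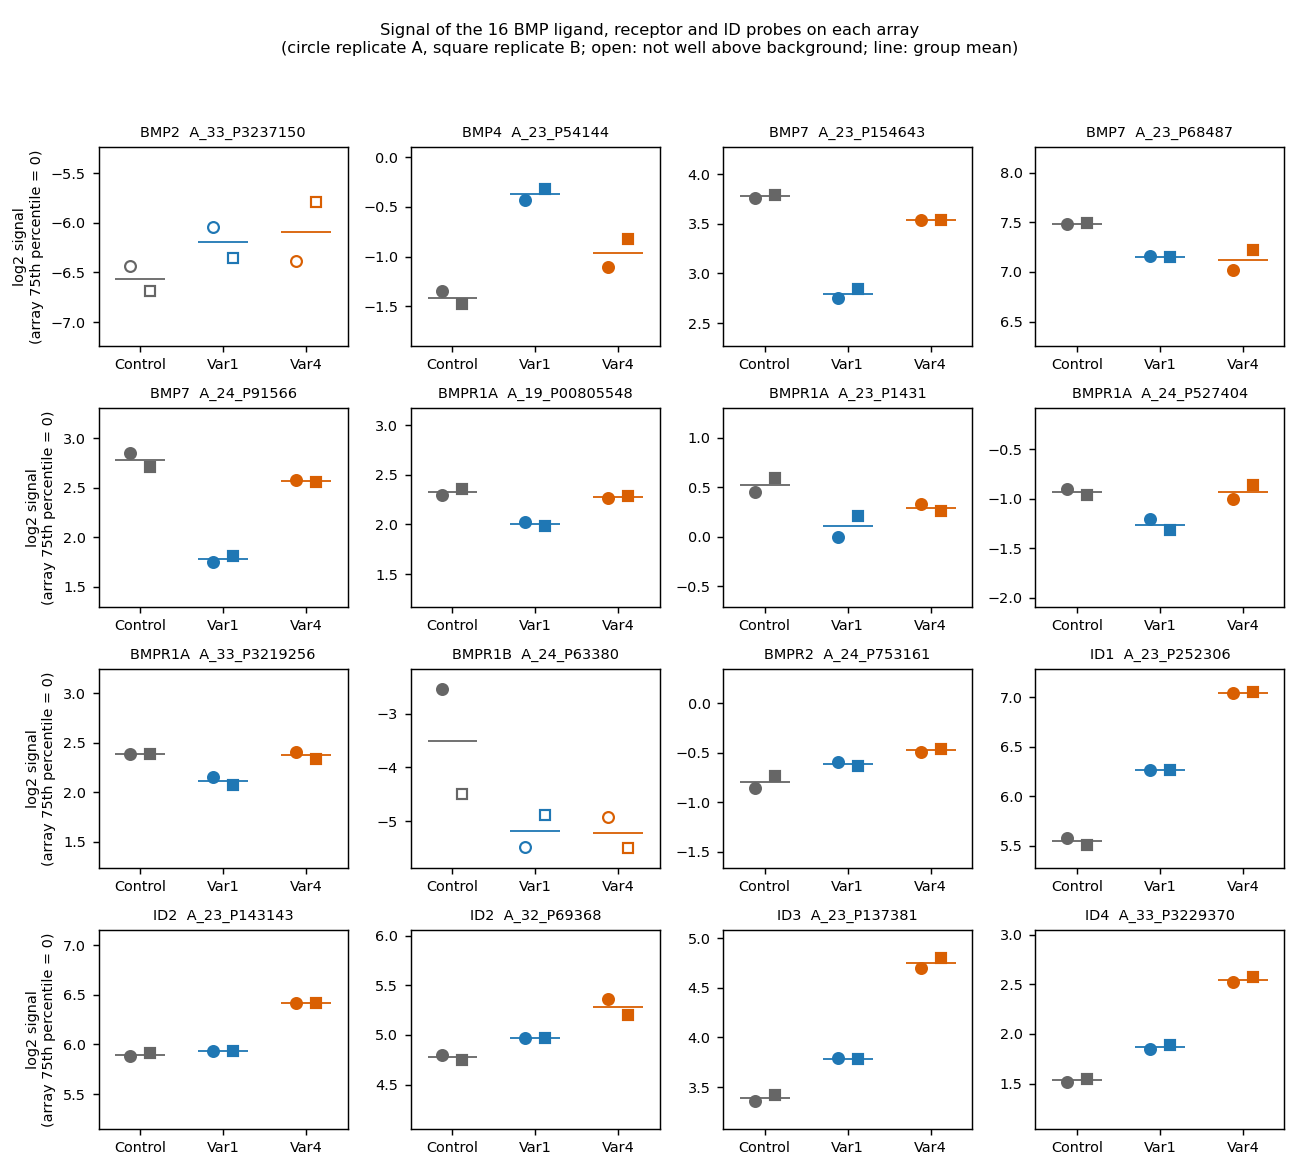
Each panel plots 1 probe on the 6 arrays, as log2 intensity with the array's 75th percentile at 0 (y axis, at least 2 log2 units in each panel), for Control, BT474-Var1 and BT474-Var4 cells (x axis); circles are replicate A, squares replicate B, lines group means and open symbols values not well above background. ID1, ID3 and ID4 climb from Control through BT474-Var1 to BT474-Var4, BMP4 is highest in BT474-Var1, and BMP2 has no filled symbol.

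The promoters of ID1 and ID3, the members with the widest range of group means (1.50 and 1.36 log2 units), are printed because these genes moved together. The 250 bases before the start of each gene are from RefSeq (GRCh38.p14), at chr20:31605039-31605288 on the plus strand for ID1 and chr1:23559502-23559751 on the minus strand for ID3, read 5′ to 3′ in the direction of the gene. Capitals mark GTCT or its reverse complement AGAC, the short element that the SMAD proteins are known to contact.
ID1 promoter: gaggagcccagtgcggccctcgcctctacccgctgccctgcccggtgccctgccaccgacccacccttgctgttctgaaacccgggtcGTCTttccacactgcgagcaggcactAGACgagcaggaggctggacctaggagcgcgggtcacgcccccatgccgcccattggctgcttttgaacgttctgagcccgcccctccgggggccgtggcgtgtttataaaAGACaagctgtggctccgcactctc
ID3 promoter: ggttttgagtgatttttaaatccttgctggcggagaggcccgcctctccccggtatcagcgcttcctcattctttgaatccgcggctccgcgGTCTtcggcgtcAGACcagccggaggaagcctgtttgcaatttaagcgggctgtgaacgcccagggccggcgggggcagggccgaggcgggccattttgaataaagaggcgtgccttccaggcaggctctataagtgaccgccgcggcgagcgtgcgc
ID1 had 3 matches and ID3 had 2, and the windows of ID2 and ID4 held 2 and 1. At least 1 match was present in 77.5% of the 35116 windows of the same length, so a match is common. GGCGCC, the GC-rich SMAD1 and SMAD5 element, was looked for on both strands as well and was found in 16.4% of all windows and in none of the 4 ID windows. Sequence outside these 250 bases was not searched, so elements farther upstream would be missed. CACGTG, an E-box, was found in 6.34% of all windows and in none of the 4 ID windows. No motif overlapped another in the 4 ID windows, since GTCT alone was found there. RefSeq's table held windows for 8 of the 10 members, with BMP2 and BMP7 not listed.

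Markers of other cell types moved in part with the ID genes. Of 7 fibroblast or mesenchymal markers, COL1A1 and PDGFRB were above background on all 6 arrays, and COL1A2, COL3A1, LUM and THY1 were on none. COL1A1, a collagen chain, rose by 0.34 in BT474-Var1 cells (adjusted p = 0.0116, limma) and by 1.03 in BT474-Var4 cells (SE 0.05, adjusted p = 0.00293). PDGFRB, a growth factor receptor of these cells, lay at -0.02 (adjusted p = 0.908) and -0.32 (adjusted p = 0.129). DCN, the proteoglycan decorin, was above background on the BT474-Var4 arrays alone, at -1.35 and -1.75. Of the 11 tested luminal and HER2 amplicon markers, 4 were higher and 3 lower in BT474-Var1 cells, against 14.2% and 20.7% of all tested genes. In BT474-Var4 cells 0 were higher and 2 lower, against 10.2% and 14.6%. The luminal and amplicon calls in BT474-Var1 cells were KRT19 (0.62, adjusted p = 0.00445), KRT8 (0.32, adjusted p = 0.0224), GRB7 (0.27, adjusted p = 0.04) and ERBB2 (0.22, adjusted p = 0.0295) against EPCAM (-0.66, adjusted p = 0.00523), CDH1 (-0.47, adjusted p = 0.00588) and PGR (-0.29, adjusted p = 0.0187). In BT474-Var4 cells the hormone receptors PGR (-1.22, adjusted p = 0.00262) and ESR1 (-0.47, adjusted p = 0.0176) were lower. KRT14, a basal keratin, was above background on all 4 variant arrays and on neither Control array. Its BT474-Var1 mean exceeded Control by at least 2.43-fold (adjusted p = 0.00484) and its BT474-Var4 mean by at least 1.94-fold (adjusted p = 0.0105), with Control raised to the dimmest probe above background of each array. Among the other lists PTPRC and CD14 (haematopoietic, 2 of 4) and CDH5 and VWF (endothelial, 2 of 3) read above background on all arrays, and none of 4 basal markers did so on all 6. VWF fell in BT474-Var1 cells (-0.87, adjusted p = 0.00577). With the 75th percentile of an array set to 1, the 7 fibroblast or mesenchymal markers summed to 3.15 to 3.18 in Control, 3.69 to 3.82 in BT474-Var1 and 5.54 to 5.73 in BT474-Var4 cells, and the 12 luminal markers to 2390 to 2430, 2960 to 2990 and 2350 to 2370. These are sums of linear values, so the brightest marker weighs most, COL1A1 in the first list and KRT19 in the second. They do not show that a list moved as a whole. The basal sums were 0.147 to 0.154, 0.224 to 0.289 and 0.179 to 0.235, the endothelial 2.58 to 2.79, 1.78 to 1.89 and 2.43 to 2.58, and the haematopoietic lay between 1.13 and 1.34 on all arrays. Their part in the ID results was not tested.

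Of the ligands, BMP4 and BMP7 moved in opposite directions in BT474-Var1 cells, and BMP2 was not measurable. BMP4, a secreted ligand that directs mesoderm and epithelial fates, was higher there, and BMP7, a ligand of epithelial development and of bone, was lower on each of its 3 probes. The groups of BMP4 did not overlap, with Control arrays at -1.35 and -1.48, BT474-Var1 arrays at -0.43 and -0.32, and BT474-Var4 arrays at -1.11 and -0.82. BMP4 rose by 1.04 in BT474-Var1 cells (95% interval 0.72 to 1.36, 2.06-fold, adjusted p = 0.00689, limma), and this call held under all 15 alternatives, at 0.54 with normexp. In BT474-Var4 cells it lay 0.45 above Control (0.13 to 0.77, adjusted p = 0.0599), which passed under normexp correction (0.21, adjusted p = 0.0148), with a variance trend (0.00884), and when the probes above background on all 6 arrays were tested (0.0376). The step from BT474-Var1 down to BT474-Var4 was -0.59 (adjusted p = 0.0204) and lay between -0.74 and -0.34 over the alternatives. It missed the threshold under the methods' analysis of variance and with no dim-probe filter. It also did so without BT474-Var1 replicate A, BT474-Var1 replicate B or BT474-Var4 replicate A.

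The BMP7 probes did not report equal changes. A_24_P91566, printed above, lies 57765 bases from A_23_P68487 in the genome, and A_23_P154643 lies 1710 bases beyond that, toward the 3′ end of the gene (chr20:55745555-55745614 and chr20:55743791-55743844 in hg19). A_24_P91566 read 2.85 and 2.71 in Control, 1.75 and 1.81 in BT474-Var1, and 2.58 and 2.56 in BT474-Var4 cells. A_23_P154643 read 3.76 and 3.79, 2.75 and 2.84, and 3.54 and 3.54. A_23_P68487, the brightest, read 7.48 and 7.49, 7.16 and 7.15, and 7.02 and 7.22. On the first 2 of these probes BT474-Var1 stood alone at the bottom, whereas on the brightest both variants lay below Control and overlapped each other.
The fall in BT474-Var1 cells was 1.00 log2 units on A_24_P91566 (change -1.00, 95% interval -1.18 to -0.82, adjusted p = 0.00374, limma) and 0.98 on A_23_P154643 (-0.98, -1.13 to -0.83, adjusted p = 0.00311), against -0.33 on the brightest probe (-0.55 to -0.12, adjusted p = 0.0384). BT474-Var4 exceeded BT474-Var1 by 0.79 (adjusted p = 0.00295) and 0.74 (adjusted p = 0.00233) on the first pair and differed by -0.03 on the brightest (-0.25 to 0.18, adjusted p = 0.76). The difference between probes was not tested. Against Control, BT474-Var4 cells were lower on the brightest probe (-0.37, adjusted p = 0.0397) and on A_23_P154643 (-0.24, adjusted p = 0.0453) and lay at -0.21 on A_24_P91566 (adjusted p = 0.0954). The call on A_23_P154643 was lost without any 1 of the 6 arrays, and that on the brightest probe without each of the 5 arrays other than BT474-Var4 replicate B. Both calls were also lost with quantile normalization, no dim-probe filter, the replicate block, only the groups compared and the methods' analysis of variance. On the brightest probe the fall in BT474-Var1 cells was lost without either Control or either BT474-Var1 array (0.121 to 0.141).

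BMP2, a ligand close to BMP4, had 1 probe, which was not well above background on any array (-6.69 to -5.79). No level or change can be given for it.

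Of the receptors, BMPR1A was lower in BT474-Var1 cells on 4 of 4 probes, and BMPR2 was higher in BT474-Var4 cells, both by less than 1.5-fold. BMPR1A is a type I receptor kinase for BMP2 and BMP4. Probes A_19_P00805548 and A_33_P3219256 have the same sequence, so they are repeat measurements of 1 site (chr10:88684862-88684921 in hg19). The first read 2.30 and 2.36 in Control, 2.02 and 1.98 in BT474-Var1, and 2.27 and 2.29 in BT474-Var4 cells. The second read 2.39 and 2.39, 2.15 and 2.07, and 2.41 and 2.34. On this site both BT474-Var1 arrays lay below the other 4, which overlapped between Control and BT474-Var4 on the second probe.
A_23_P1431 read 0.45 and 0.59 in Control, 0.00 and 0.21 in BT474-Var1, and 0.33 and 0.26 in BT474-Var4 cells, and A_24_P527404 read -0.90 and -0.96, -1.21 and -1.32, and -1.00 and -0.86. BMPR1A thus had its lowest arrays in BT474-Var1 cells on each probe. The change in BT474-Var1 cells ranged from -0.41 to -0.28 over the 4 probes (adjusted p 0.0136 to 0.0359, limma), and BT474-Var4 exceeded BT474-Var1 on 3 of them by 0.26 to 0.33 (adjusted p 0.0172 to 0.0292), with 0.19 on A_23_P1431 (adjusted p = 0.195). BT474-Var4 and Control differed by -0.23 to 0.00 (adjusted p 0.165 to 0.986), with the widest interval on A_23_P1431 (-0.49 to 0.04). Every one of the 4 calls in BT474-Var1 cells was lost without Control replicate A (adjusted p 0.0588 to 0.142), Control replicate B (0.0733 to 0.144) or BT474-Var1 replicate A (0.0506 to 0.107), and 3 without BT474-Var1 replicate B (0.0625 to 0.125). The A_23_P1431 call was also lost without either BT474-Var4 array (0.067). The 3 steps between the variants were lost without BT474-Var1 replicate A (0.0553 to 0.0615), BT474-Var1 replicate B (0.0737 to 0.111) or BT474-Var4 replicate B (0.0614 to 0.103), 2 of them without BT474-Var4 replicate A (0.0628 and 0.0901), and 2 without either Control array (0.0557 and 0.0599).

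BMPR2, the type II receptor kinase of BMP ligands, read -0.86 and -0.74 in Control, -0.59 and -0.63 in BT474-Var1, and -0.49 and -0.46 in BT474-Var4 cells (A_24_P753161). The 3 groups did not overlap, and neighbors in this order were close. BMPR2 rose by 0.33 in BT474-Var4 cells (95% interval 0.15 to 0.50, adjusted p = 0.0317, limma), with 0.19 in BT474-Var1 cells (0.01 to 0.36, adjusted p = 0.0896) and 0.14 between the variants (-0.04 to 0.31, adjusted p = 0.163). The call was lost without any 1 of the 6 arrays. It was also lost under the methods' analysis of variance, with no dim-probe filter, with only the groups compared and with the replicate block. BMPR1B, the other type I receptor of the set, was above background on Control replicate A alone, at -2.54, and read -4.49 on Control replicate B and -5.50 to -4.89 on the variant arrays. It was not tested.

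**Figure D2:**
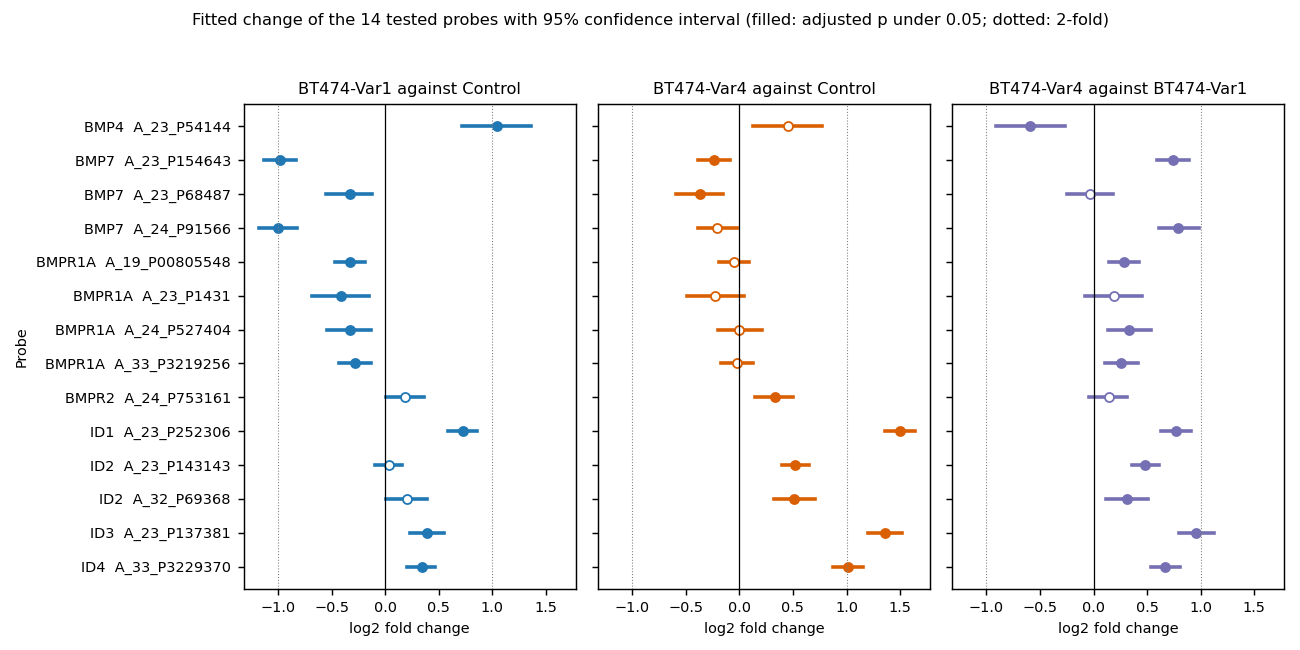
The x axis is the fitted log2 fold change with its 95% confidence interval and the y axis lists the 14 tested probes, in 1 panel for each comparison; filled points had an adjusted p under 0.05 and dotted lines mark 2-fold. The 5 ID probes lie to the right of 0 in BT474-Var4 cells (0.51 to 1.50), and the BMP7 and BMPR1A probes lie to the left in BT474-Var1 cells (-1.00 to -0.28).

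A list of 72 further genes of the pathway, grouped by role, was read on the brightest tested probe of each gene. Of these, 71 were on the array and 51 were tested. In BT474-Var1 cells 11 were higher and 6 lower than in Control cells, against 14.2% and 20.7% of all 24619 tested genes. In BT474-Var4 cells 13 were higher and 3 lower, against 10.2% and 14.6%. Between the variants 14 were higher and 13 lower in BT474-Var4 cells, against 20.9% and 21% of all tested genes. The median change of the list was 0.05, 0.06 and -0.04, and that of all tested genes -0.05, -0.08 and -0.03.

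Among the SMAD proteins, SMAD1 and SMAD5, the main transducers of BMP signals, did not pass the test against Control. SMAD1 differed from Control by -0.12 in BT474-Var1 cells (95% interval -0.26 to 0.01, adjusted p = 0.13, limma) and by 0.06 in BT474-Var4 cells (-0.07 to 0.20, adjusted p = 0.419). SMAD5 differed by 0.00 (-0.16 to 0.16, adjusted p = 0.979) and 0.08 (-0.09 to 0.24, adjusted p = 0.409). SMAD9, the third receptor-regulated SMAD of the pathway, read -1.73 and -2.12 in Control, -0.93 and -0.73 in BT474-Var1, and -0.91 and -0.95 in BT474-Var4 cells, so both variants lay above Control and overlapped each other. It rose by 1.10 (adjusted p = 0.00985) and 0.99 (adjusted p = 0.0175), and its other tested probe rose as well (1.40 and 1.57). The rise in BT474-Var4 cells missed the threshold without Control replicate B (adjusted p = 0.0566), BT474-Var4 replicate A (0.0754) or BT474-Var4 replicate B (0.0748). With normexp, whose offset of 50 draws dim probes together, SMAD9 changed by 0.46 (adjusted p = 1.3e-04) and 0.38 (adjusted p = 6.5e-04). SMAD4, the common partner, rose by 0.43 in BT474-Var1 cells (adjusted p = 0.0108, limma) and lay at 0.05 in BT474-Var4 cells (adjusted p = 0.617). Its second probe lay at 0.17 in BT474-Var1 cells without passing the test. The SMAD4 call was lost without Control replicate A (adjusted p = 0.0626), BT474-Var1 replicate A (0.0506) or BT474-Var1 replicate B (0.0523).

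The inhibitory SMADs differed from each other. SMAD6, which blocks BMP receptors and is itself a target of the pathway, read 1.26 and 1.23 in Control, 1.62 and 1.63 in BT474-Var1, and 2.32 and 2.34 in BT474-Var4 cells. This is the order seen for ID1, ID3 and ID4, with no overlap between groups. SMAD6 rose by 0.38 in BT474-Var1 cells (SE 0.05, adjusted p = 0.00819, limma) and by 1.09 in BT474-Var4 cells (SE 0.05, 2.13-fold, adjusted p = 0.00267), with 0.70 between the variants (adjusted p = 0.002). Without Control replicate B the first of these had an adjusted p of 0.0526. SMAD7, which acts on both the BMP and the TGF-beta branch, passed against Control in neither BT474-Var1 (-0.13, adjusted p = 0.188) nor BT474-Var4 cells (0.20, adjusted p = 0.0878), with 0.33 between them (adjusted p = 0.0182). That step was lost without BT474-Var1 replicate B (adjusted p = 0.0715) or BT474-Var4 replicate B (0.0767).

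Of 9 tested SMAD1/5 targets outside the ID genes, 3 rose in BT474-Var1 cells and 5 in BT474-Var4 cells, and 0 fell in either at an adjusted p under 0.05 (limma). Of all tested genes, 14.2% and 10.2% were higher and 20.7% and 14.6% lower. Between the variants 3 of the 9 targets were higher and 3 lower in BT474-Var4 cells, against 20.9% and 21% of all tested genes. The lower ones were HEY1, JUNB (-0.42, adjusted p = 0.00752) and GATA3 (-0.30, adjusted p = 0.0167). At an unadjusted p under 0.05, SP7 alone was lower, in BT474-Var4 cells (-0.23, adjusted p = 0.112). ATOH8, a bHLH factor, read -1.11 and -1.03 in Control, -0.19 and -0.07 in BT474-Var1, and 0.25 and 0.52 in BT474-Var4 cells, again with no overlap and in the order of ID1. It rose by 0.94 (adjusted p = 0.00714) and 1.45 (2.73-fold, adjusted p = 0.00503), and its second probe lay at 0.58 and 0.61 without passing. Between the variants ATOH8 differed by 0.51 (adjusted p = 0.0241), and its second probe by 0.03. The 0.51 step missed the threshold by the contrast of the methods' analysis of variance (adjusted p = 0.0684), with no dim-probe filter (0.0914) and with only the groups compared (0.0519). It also did so without each of the 5 arrays other than BT474-Var4 replicate A, at 0.38 to 0.57. HEY1, a bHLH repressor also induced by Notch, had another order. Its Control arrays read -2.77 and -2.70, its BT474-Var1 arrays -1.55 and -1.75, and its BT474-Var4 arrays -2.28 and -2.10. HEY1 rose in BT474-Var1 (1.08, adjusted p = 0.00519) and less in BT474-Var4 cells (0.55, adjusted p = 0.0272), and BT474-Var4 lay below BT474-Var1 by -0.54 (adjusted p = 0.0172). The homeobox genes MSX1 and DLX5 rose in BT474-Var4 cells alone at this threshold, by 1.06 (adjusted p = 0.026) and 1.46 (adjusted p = 0.0249). MSX1 lay at -0.26 and DLX5 at 0.44 in BT474-Var1 cells, and BT474-Var4 exceeded BT474-Var1 on both, by 1.32 (adjusted p = 0.00926) and 1.02 (adjusted p = 0.0381). Leaving out arrays removed several of these calls. HEY1 in BT474-Var4 cells had an adjusted p of 0.0587 to 0.121 without either Control or either BT474-Var4 array, and DLX5 one of 0.0838 to 0.112 without any of the same 4. MSX1 had one of 0.0507 to 0.115 without each of the 5 arrays other than BT474-Var4 replicate A. Between the variants HEY1 missed the threshold without BT474-Var1 replicate A (0.0636) or BT474-Var4 replicate A (0.0652), and DLX5 without each of the 5 arrays other than BT474-Var1 replicate B (0.0653 to 0.139). JUNB, an AP-1 subunit and immediate early gene, was the other target that rose in both variants (0.80, adjusted p = 0.00374, and 0.39, adjusted p = 0.0154). Its rise in BT474-Var4 cells was lost without either Control or either BT474-Var4 array (0.0548 to 0.0846). The normexp correction gave smaller changes, in BT474-Var1 cells of 0.52 for ATOH8 and JUNB and 0.36 for HEY1, between the variants of 0.22 for MSX1 and DLX5 and -0.24 for HEY1, and in BT474-Var4 against Control of 0.84 for ATOH8, 0.25 for JUNB, 0.24 for MSX1, 0.32 for DLX5 and 0.11 for HEY1, and the HEY1 call was lost (adjusted p = 0.0916).

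Among the secreted modulators, NOG was lower in BT474-Var1 cells. It encodes noggin, which binds BMP ligands and keeps them from their receptors, and it read -0.43 and -0.37 in Control, -1.06 and -0.99 in BT474-Var1, and -0.25 and -0.29 in BT474-Var4 cells. NOG fell by 0.63 in BT474-Var1 cells (change -0.63, adjusted p = 0.00492, limma) and lay at 0.14 in BT474-Var4 cells without passing. With normexp the fall was smaller (-0.27, adjusted p = 0.00106). Of the 8 tested antagonists 1 was higher and 2 lower in BT474-Var1 cells, against 14.2% and 20.7% of all tested genes, and 2 were higher and 1 lower in BT474-Var4 cells, against 10.2% and 14.6%. Besides NOG, the calls in BT474-Var1 cells were TWSG1 (-0.77, adjusted p = 0.00393) and FSTL3 (0.68, adjusted p = 0.00379). Those in BT474-Var4 cells were FSTL1 (0.89, adjusted p = 0.00318), CHRD (0.54, adjusted p = 0.0391) and TWSG1 (-0.38, adjusted p = 0.0173). Of these, FSTL1 held under all 15 alternatives. CHRD was lost with no dim-probe filter, the replicate block, only the groups compared, the methods' analysis of variance, and without each of the 5 arrays other than BT474-Var4 replicate B. TWSG1 was lost with no dim-probe filter and without either Control or either BT474-Var4 array. The ligand GDF6 was below background on both BT474-Var1 arrays (-5.94 and -6.24) and above it on both BT474-Var4 arrays (-3.08 and -3.01), at least 1.97-fold higher in the latter, with BT474-Var1 values raised to the dimmest probe above background of their array (adjusted p = 0.00133 for the fitted difference). In Control GDF6 was above background on 1 of 2 arrays, and its BT474-Var4 change of 1.10 (adjusted p = 0.0152) missed the threshold without Control replicate A (0.0645) or either BT474-Var4 array (0.0632 and 0.0727). With normexp GDF6 differed by 0.10 from Control (adjusted p = 0.111) and by 0.16 between the variants (adjusted p = 0.0126). The antagonist DAND5 lay the other way, above background on both BT474-Var1 arrays (-3.16 and -2.88) and on neither BT474-Var4 array (-4.97 and -5.16), with the BT474-Var1 mean at least 1.84-fold higher (adjusted p = 0.0178). Without either BT474-Var1 or either BT474-Var4 array the DAND5 difference missed the threshold (0.0614 to 0.079), and it was -0.33 with normexp (adjusted p = 8.3e-04). Of the proteases that mature BMP ligands or release them from antagonists, PCSK5 rose by 1.10 in BT474-Var4 cells (2.15-fold, adjusted p = 0.0102) and BT474-Var4 exceeded BT474-Var1 on BMP1 by 1.03 (adjusted p = 0.0477), with BMP1 above background on 1 of 2 BT474-Var1 arrays. Without Control replicate A or B the PCSK5 rise missed the threshold (adjusted p = 0.0631 and 0.0557), and the BMP1 difference did so without each of the 5 arrays other than BT474-Var1 replicate A (0.0648 to 0.161). With normexp the BMP1 difference was 0.08 (adjusted p = 0.273) and the PCSK5 rise 0.51 (adjusted p = 4.5e-04).

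The E proteins, the bHLH partners that ID proteins sequester, were all detected. TCF3 read 4.82 and 4.86 in Control, 4.57 and 4.63 in BT474-Var1, and 4.01 and 4.26 in BT474-Var4 cells, an order opposite to that of ID1. TCF3 fell by 0.71 in BT474-Var4 cells (change -0.71, adjusted p = 0.0145, limma) and lay at -0.24 in BT474-Var1 cells without passing. Without Control replicate A or B the fall had an adjusted p of 0.0737 and 0.0814. TCF4 and TCF12 passed in no comparison with Control. Between the variants, BT474-Var4 was lower on TCF3 (-0.47, adjusted p = 0.0226) and TCF4 (-0.49, adjusted p = 0.0291) and higher on TCF12 (0.48, adjusted p = 0.0363). Each of these steps missed the threshold by the contrasts of the methods' analysis of variance (adjusted p 0.0624 to 0.0931).

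**Figure D3:**
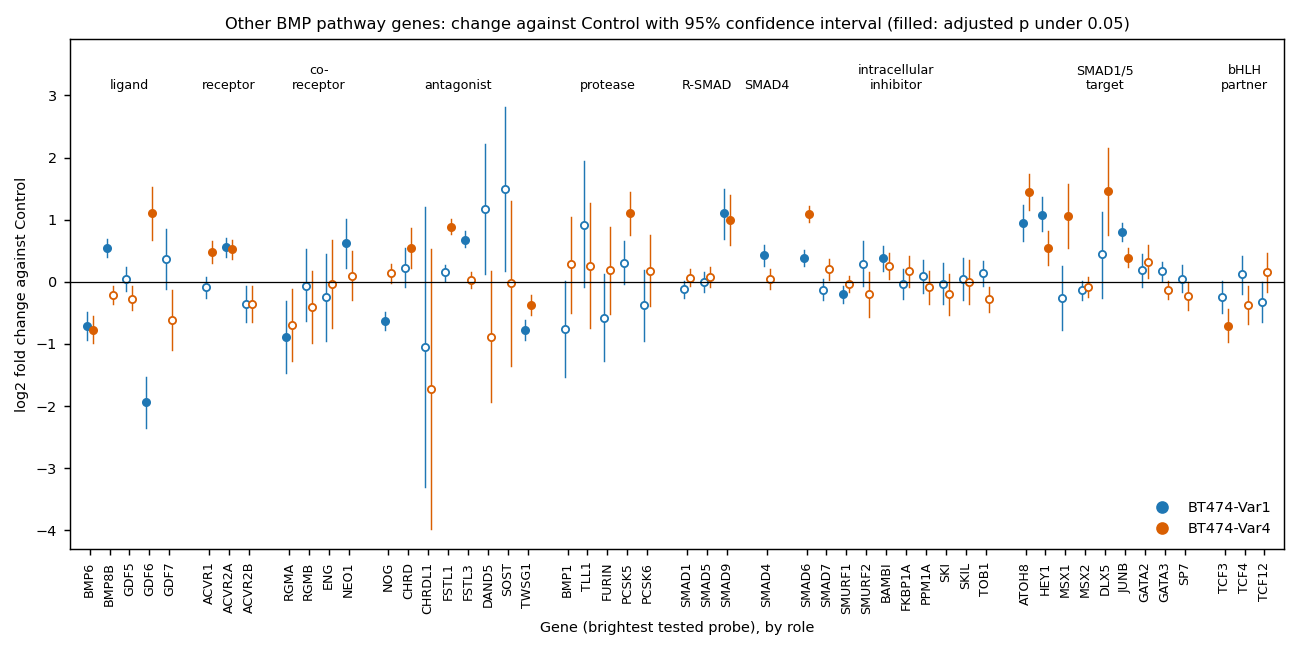
The y axis is the log2 fold change against Control with its 95% confidence interval for BT474-Var1 (blue) and BT474-Var4 (orange) cells, and the x axis lists the 51 tested pathway genes by role; filled points had an adjusted p under 0.05. SMAD6, ATOH8, MSX1, DLX5, PCSK5 and GDF6 lie above 1 in BT474-Var4 cells, and SMAD9 and HEY1 (filled) and the antagonists SOST and DAND5 (open, 1.50 and 1.17, adjusted p 0.0817 and 0.0833) do so in BT474-Var1 cells.

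For the 3 members with the widest range of group means, the gene names with the most similar profile were sought among 1882 probes that differed by 2-fold or more between groups and were above background on all 6 arrays. Over the 6 arrays ID1 was most like ATXN1 (Pearson r = 0.9994), EDN2 (0.9985) and FGD5 (0.9981). ID3 was most like LINC00152 (0.9988), ID4 (0.9982) and ECM1 (0.9968). BMP4 was most like RRAGD (0.9912), DBP (0.9906) and KIAA1683 (0.9899). The 6 points fall in 3 pairs of replicates, so these values describe the order and spacing of the group means, and no p is given for them. FGD5, for example, had group means of -0.47, 0.71 and 2.06, and RRAGD of -1.46, 0.43 and -0.83.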

How the data were processed

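RNA of 3 BT474 populations, 2 samples each, was labeled with Cy3 (100 ng of total RNA) and read on Agilent one-color arrays. Spots were quantified by the authors with Agilent Feature Extraction 11.5.1.1, which subtracted background, and deposited the linear intensity of each spot per array; they also deposited a table of log2 values shifted in GeneSpring to each array's 75th percentile. Probe positions are on hg19 per the file headers, whose array design differs from the one the methods name.

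Here log2 of the processed intensity less the array's 75th percentile was used, outlier spots (63 to 128 per array) were left out, and spots of a probe were averaged. A group mean was fitted to all 6 arrays with limma 3.58.1 in R 4.3.3 (3 residual and 1.53 prior degrees of freedom), with Benjamini-Hochberg adjustment over 31858 tested probes. The deposited table differed by a median of at most 0.00716 per array. Precision is limited by 2 arrays per group. The pipeline was tested on simulated data.

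The members, gene lists, tests and alternatives were chosen with earlier results of these data known. Named were all members, the SMAD genes, and pathway genes past 2-fold and the threshold in a comparison. JUNB, GATA3, NOG, TWSG1, FSTL1, FSTL3, CHRD, TCF3, TCF4 and TCF12 were named after their values were seen. Replicate letters did not pair samples: the A minus B differences of 2 groups correlated at -0.012, 0.045 and -0.015. The alternatives were normexp correction (offset 50), quantile normalization, no dim-probe filter, a filter on every array, the authors' deposited log2 table, a replicate block, a variance trend with robust estimation, only the groups compared, the methods' analysis of variance, and leaving out each array (15 in all), with the mean over a gene's probes tried for the pathway gene counts alone.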

Additional observations from a re-analysis of the deposited data

How the results depend on the processing

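Of 30 calls of member probes over the 3 comparisons, 13 held under all 15 alternatives: ID1 in each comparison, ID3 and ID4 in BT474-Var4 against both other groups, the ID2 coding probe between the variants, BMP4 in BT474-Var1 cells, and the BMP7 probes A_23_P154643 and A_24_P91566 in BT474-Var1 against both other groups. Member calls numbered 11 (BT474-Var1 against Control), 8 (BT474-Var4 against Control) and 11 (between the variants). With no filter on dim probes, calls over all probes fell from 10959, 7709 and 13117 to 2672, 722 and 5112. Member calls fell to 4, 3 and 6 in that setting, so that each call outside the 13 listed above was lost. With 1 array left out they ranged from 4 to 10, 3 to 6 and 6 to 8. In BT474-Var4 against Control, there were 5 with the replicate block, with only the groups compared and by the methods' one-way analysis of variance; the block changed no other member count by over 1.5 times, and the letters do not pair samples. Calls of other pathway genes numbered 17, 16 and 27, and 10, 3 and 8 with no filter; with 1 array left out they ranged from 12 to 15, 4 to 14 and 13 to 22. With the mean over a gene's probes they were 20, 18 and 27. The methods' analysis of variance gave 17 of these between the variants. At the methods' threshold of an unadjusted p under 0.05 and 2-fold, 2, 3 and 0 member probes passed, and 2, 3 and 0 after adjustment. Of all 31858 tested probes, 1124, 948 and 1865 passed unadjusted, and 844, 724 and 1406 after adjustment. The direction turned in uncalled changes: BMPR1A A_24_P527404 in BT474-Var4 against Control (0.00 with the deposited table, -0.04 with normexp, -0.07 and -0.03 without BT474-Var4 replicate B and Control replicate B), BMPR1A A_33_P3219256 there (-0.05 to 0.01 with 1 array left out, the highest without BT474-Var4 replicate B), ID2 A_23_P143143 in BT474-Var1 against Control (-0.02 with normexp), and BMP7 A_23_P68487 between the variants (-0.14 to 0.07 with 1 array left out, the highest without BT474-Var4 replicate A). The cause of these differences was not tested. Signal over background limits BMP2 and BMPR1B, for which no change could be measured.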
